A study of Mus musculus with 4 samples.

Results

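The Schlafen genes are a family of growth regulators and antiviral factors encoded in a cluster on mouse chromosome 11. The rows of the deposited gene count table whose symbol was Slfn1, Slfn2, Slfn3, Slfn4, Slfn5, Slfn8 or Slfn9 were taken, 7 of the 55401 rows. They were measured in B cells from the spleens of C57BL/6 mice, which had been purified with anti-CD43 beads. Antibodies to CD40 (1 µg/ml) and IgM (10 µg/ml), which mimic a helper T cell and antigen, were present during 36 h of culture. Wild-type mice gave 2 poly(A) RNA libraries, and another 2 carried the label Adar1 cKO, a conditional knockout in B cells of the enzyme that edits adenosine to inosine in double-stranded RNA. All 4 libraries shared the strain, the purification and the stimulation. The labels used here state neither the Cre driver nor the deleted exons, age or sex, and do not tie each library to its own mouse or culture. Each p-value below therefore rests on a spread between libraries that may be technical.

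Library totals lay between 17327480 and 19669651 counts. Adar itself, counted over the whole gene, was higher in the libraries labelled cKO (218 and 233 CPM, a unit in which every library has the same scaled size) than in wild type (137 and 149.97 CPM). A count over the whole gene does not show whether the deleted exons were lost, so the label could not be checked from it. The term cKO-labelled is therefore used for the libraries labelled cKO, and all directions below follow that label. The B-cell markers Ms4a1, Cd79a, Cd79b, Pax5 and Cd22 were abundant, from 236 CPM for Cd22 to 964 CPM for Cd79a in single libraries. Of these 5, 4 were called lower in the cKO-labelled libraries, against 9.54% of all tested genes. The changes of these 4 ran from -0.23 (Pax5) to -0.36 (Cd22) on the log2 scale. In bulk libraries, fewer cells of a type and less RNA per cell cannot be told apart.

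Schlafen proteins share an N-terminal core related to nucleic acid binding domains, and several of them bind or cut transfer RNA. Many Schlafen genes are induced by type I interferon, through a transcription factor complex containing STAT2 and IRF9 that recognises an interferon-stimulated response element (ISRE) in DNA. In lymphocytes the family is best known for holding cells in quiescence and for limiting viral protein synthesis. The members are usually sorted by length into short forms (Slfn1 and Slfn2), intermediate forms (Slfn3 and Slfn4) and long forms with a helicase-like C-terminal part (Slfn5, Slfn8 and Slfn9).

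The annotated coding lengths followed that order: 1014 bases for Slfn1 and 1137 for Slfn2, 1923 for Slfn3 and 1809 for Slfn4, and 2655 for Slfn5, 2733 for Slfn8 and 2733 for Slfn9. RefSeq start sites on GRCm38 were found for all 7 genes, and the 250 bases before each were searched on both strands for the ISRE core GAAANNGAAA. The ISRE core was present before all 3 long forms and before none of the other 4 members, whereas 3.46% of 27025 genes with a promoter in the table held it. Slfn8 and Slfn9 are close copies, with 92.7% of aligned coding bases identical, so their matches may not be independent. The ISRE stretches are shown to let the 3 promoters be compared. Slfn1, which had the largest change of the members below, has no such core in its window. Capitals mark the ISRE core, which lies on the opposite strand in Slfn8 and Slfn9.
Slfn5: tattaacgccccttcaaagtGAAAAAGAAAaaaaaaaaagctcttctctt
Slfn8: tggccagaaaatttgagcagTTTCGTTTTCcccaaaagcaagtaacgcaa
Slfn9: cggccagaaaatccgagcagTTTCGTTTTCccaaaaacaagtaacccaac
They lie at chr11:82951927-82951976 on the plus strand, chr11:83020829-83020878 on the minus strand and chr11:82991846-82991895 on the minus strand. The core ends 146, 39 and 36 bases before the start site of Slfn5, Slfn8 and Slfn9 in that order. For Slfn5 this holds for the RefSeq start site only, since the gene annotated for the counts begins farther upstream, at 82951349. For Slfn8 the start site farther upstream of its pair of RefSeq start sites is used.

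The short and intermediate forms shared another stretch, ACTTCCTGG, the longest run of letters common to their 4 windows on the coding strand. It was looked for after these promoters had been read, and its presence in all 4 follows from that choice. Its reverse strand holds GGAA, the core bound by ETS transcription factors. It began between 42 and 74 bases before the start site of Slfn1, Slfn2, Slfn3 and Slfn4, and stood before none of the 3 long forms on either strand. Of all genes, 0.829% held it. The sequences show the bases around the stretch in each of the 4, with ACTTCCTGG in capitals.
Slfn1: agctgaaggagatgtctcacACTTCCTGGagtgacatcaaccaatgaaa
Slfn2: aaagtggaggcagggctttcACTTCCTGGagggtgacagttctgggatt
Slfn3: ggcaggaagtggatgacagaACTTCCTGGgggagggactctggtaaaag
Slfn4: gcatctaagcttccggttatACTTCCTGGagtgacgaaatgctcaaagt
All 4 are on the plus strand, at chr11:83116726-83116774, chr11:83065037-83065085, chr11:83191268-83191316 and chr11:83175093-83175141. A match describes the letters only. Binding was not measured, and the absence of these letters from a window says nothing about a factor.

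The question put to the genotypes was whether Schlafen transcripts of activated B cells changed under the Adar1 deletion named in the labels. Of the 7 members, 6 passed the filter on low counts and all 6 were called higher in the cKO-labelled libraries, against 12.2% of the 14180 genes tested (adjusted p under 0.05, edgeR's quasi-likelihood test). None was called lower, against 9.54% of all tested genes. The 4 libraries did not overlap between genotypes for any of the 6, with the cKO-labelled pair above the wild-type pair, as was the case for 29.2% of all tested genes. The changes ranged from 0.22 to 6.40 on the log2 scale. Slfn1 passed the filter only through its counts in the cKO-labelled libraries, and Slfn4 did not pass. FPKM below are the authors' deposited values, in which counts are scaled to exonic length and library total, so that levels of different genes can be compared. Means are given ± SD and log2 changes ± SE, all with n = 2 libraries per genotype.

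**Figure D1:**
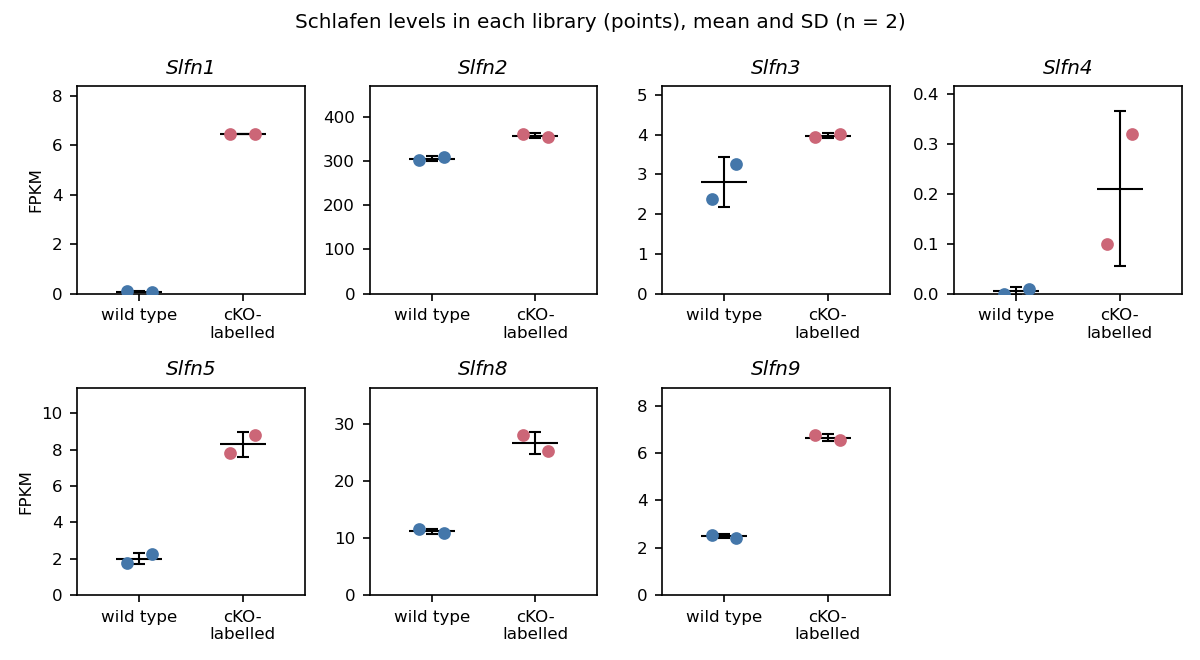
Deposited FPKM (vertical axis, from 0, with its own range for each gene) of the 7 Schlafen members in each wild-type and cKO-labelled library, shown as points, with the mean and SD of 2 libraries. Slfn1 goes from at most 0.09 FPKM to 6.44 and 6.46, while Slfn2 sits above 300 FPKM in every library.

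Among the short forms, Slfn1 was nearly silent in wild type and clearly present in the cKO-labelled libraries. Slfn1 (ENSMUSG00000078763, chromosome 11, 83116849 to 83122670, plus strand) slows the growth of thymocytes and T cells when it is overexpressed. Wild-type libraries 1 and 2 held 3 and 2 counts of it, whereas cKO-labelled libraries 1 and 2 held 216 and 210. Each wild-type count was at or under the 3 counts that a gene without a count could hold, so the wild-type level is poorly known. The ratio of pooled counts was 88.6, with a 95% counting interval of 37.7 to 274 that covers counting error only. The fitted change was 6.40 ± 0.36 with an adjusted p of 2.42e-12. That value depends on the prior count of the fit, and its SE is narrower than the counting interval implies. By fitted change Slfn1 stood 1st of 14180 tested genes, but 34th of 14866 without wild-type library 2 and 11th of 14913 without wild-type library 1.

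Slfn2, which keeps T cells quiescent and shields transfer RNA from cleavage, was by far the most abundant member and had the smallest change. Slfn2 (ENSMUSG00000072620, chromosome 11, 83065112 to 83070678, plus strand) stood at 301 and 310 FPKM in the wild-type pair and reached 362 and 354 FPKM in the cKO-labelled pair. In CPM these were 504 and 515 against 601 and 589. The pairs did not overlap, and each pair was tight. The change was 0.22 ± 0.056, a 1.17-fold rise, with an adjusted p of 0.00506. Without wild-type library 1 the change was 0.20 and its adjusted p 0.0555. The antisense gene Gm20234 overlaps Slfn2 on the opposite strand, and these libraries do not mark strand. It held 23 to 47 counts per library, against at least 8688 for Slfn2.

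Among the intermediate forms, Slfn3 rose slightly and Slfn4 was barely detected. Slfn3 (ENSMUSG00000018986, chromosome 11, 83191330 to 83215154, plus strand), known from T cells and gut epithelium, had 2.37 and 3.25 FPKM in wild type, below the 3.93 and 4.02 FPKM of the cKO-labelled pair. Wild-type library 1 was the lowest, and wild-type library 2 lay closer to the cKO-labelled pair than to library 1. The change was 0.49 ± 0.16 (adjusted p of 0.0347). This call rested on the libraries and the method: leaving out wild-type library 1 gave a change of 0.28 (adjusted p of 0.374), and DESeq2 gave 0.49 (adjusted p of 0.132). The adjusted p was 0.0515 when cKO-labelled library 1 was left out and 0.0743 when cKO-labelled library 2 was.

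Slfn4 (ENSMUSG00000000204, chromosome 11, 83175186 to 83190216, plus strand), an interferon-induced gene of myeloid cells, was counted 0 and 1 times in the wild-type pair and 7 and 22 times in the cKO-labelled pair. The genotypes did not overlap, but cKO-labelled library 1 lay closer to the wild-type counts than to cKO-labelled library 2. The ratio of pooled counts was 30.2, with a 95% counting interval of 5.00 to 1232. Slfn4 was not tested in the filtered fit. In the edgeR fit without a filter its change was 4.61 ± 1.14 (adjusted p of 0.000797). The 6 neutrophil markers were higher in sum in the same libraries, at 1.16 and 0.814 CPM in wild type against 2.28 and 3.32 CPM, with S100a9 at 13 and 7 against 23 and 39 counts, S100a8 at 5 and 4 against 13 and 17 counts, Mpo, Elane and Camp at 3 counts or fewer in any library, and Ly6g at 0 throughout. The part of such cells in the Slfn4 counts was not tested.

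All 3 long forms rose by more than 2-fold. Slfn5 (ENSMUSG00000054404, chromosome 11, 82951349 to 82964840, plus strand), a nuclear regulator of interferon-driven transcription, had 1.78 and 2.23 FPKM in wild type. In the cKO-labelled pair it had 7.79 and 8.78 FPKM. The lowest cKO-labelled value was more than 3 times the highest wild-type value. The change was 2.03 ± 0.11, a 4.10-fold rise, with an adjusted p of 1.26e-12. Slfn5os, on the opposite strand, overlaps Slfn5 and held at most 3 counts in any library.

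Slfn8 (ENSMUSG00000035208, chromosome 11, 83002158 to 83020810, minus strand) and Slfn9 (ENSMUSG00000069793, chromosome 11, 82978390 to 82991830, minus strand) are mouse relatives of the human Schlafen nucleases that cleave transfer RNA. Slfn8 had 11.5 and 10.8 FPKM in wild type against 28.0 and 25.3 FPKM in the cKO-labelled pair. Its change was 1.25 ± 0.070, a 2.38-fold rise, with an adjusted p of 2.37e-12. Slfn9 had 2.54 and 2.42 FPKM in wild type against 6.75 and 6.55 FPKM in the cKO-labelled pair. Its change was 1.42 ± 0.10, a 2.67-fold rise, with an adjusted p of 2.65e-10. Both genes thus showed tight pairs that lay far apart. The ratio of Slfn8 to Slfn9 FPKM was 4.53 and 4.48 in wild type, and lower, at 4.15 and 3.86, in the cKO-labelled pair; this difference was not tested.

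**Figure D2:**
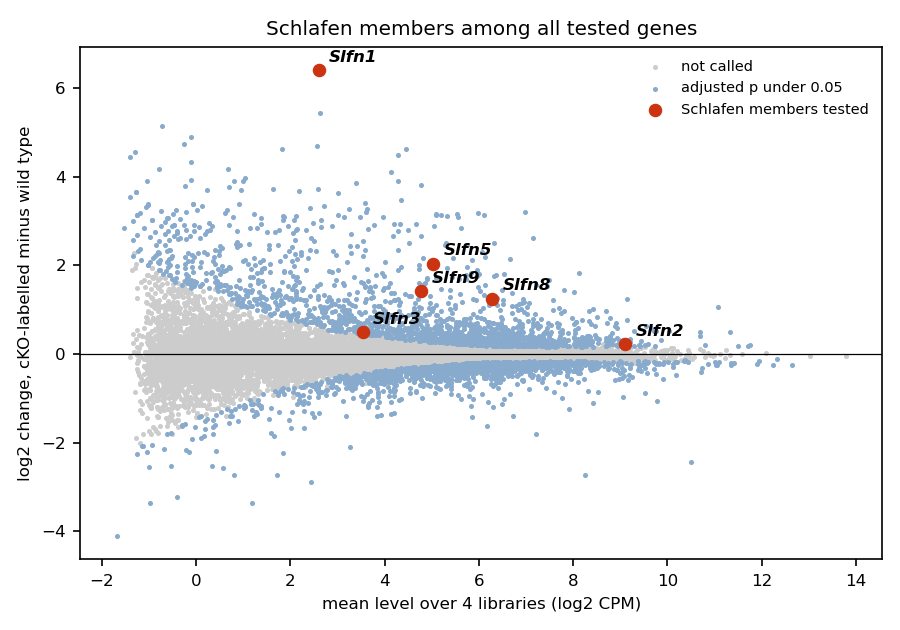
Log2 change, cKO-labelled minus wild type (vertical axis), against the mean level over 4 libraries in log2 CPM (horizontal axis) for the 14180 tested genes, with the 6 tested Schlafen members in red. All 6 lie above 0, from Slfn2 at 0.22 to Slfn1 at 6.40.

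Copies that resemble each other can exchange reads, and the labels do not say how reads with several matches were counted. The coding sequences of Slfn8 and Slfn9 were identical at 92.7% of aligned bases, as were those of Slfn3 and Slfn4, and all other pairs lay between 63.2% and 77.1%. Identity was spread along the sequences, so that few long stretches were shared. Of the 100-base stretches of a member's annotated transcripts, 3.38% in Slfn8 and 3.71% in Slfn9 recurred in another gene, mostly in Slfn10-ps. Slfn3 shared 2.92% of its stretches, mostly with the pseudogene Gm11427, and Slfn5 6.40%, nearly all with Slfn5os. The share was 0.271% in Slfn4, 0.128% in Slfn2 and 0 in Slfn1. These shares depend on the length compared, and the read length is not given in the sources used here: for 50-base stretches they ran from 0.606% in Slfn1 to 16.0% in Slfn3. With Slfn8 and Slfn9 counted as a single gene the change was 1.29 ± 0.066. With Slfn3 and Slfn4 counted as a single gene it was 0.57 ± 0.16 with an adjusted p of 0.0133. That sum takes in the Slfn4 counts, 0 and 1 in wild type against 7 and 22. Slfn10-ps and Gm11427 were not part of the sums, so reads exchanged with them were not covered.

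The order of the levels changed between genotypes below the top pair. By FPKM, Slfn2 and then Slfn8 led in all 4 libraries. In wild type, Slfn3 (2.81 ± 0.622), Slfn9 (2.48 ± 0.0849) and Slfn5 (2.01 ± 0.318) followed, and Slfn3 and Slfn9 overlapped. Slfn1 (0.070 ± 0.028) and Slfn4 (0.0050 ± 0.0071) came last. In cKO-labelled libraries the order was Slfn5 (8.29 ± 0.700), Slfn9 (6.65 ± 0.141), Slfn1 (6.45 ± 0.0141), Slfn3 (3.98 ± 0.0636) and Slfn4 (0.210 ± 0.156), with no overlap between neighbours. Slfn2 made up 94.3% of the summed FPKM of the 7 members in both wild-type libraries and 87.2% and 87.3% in the cKO-labelled ones. The other 6 members summed to 18.3 and 18.8 FPKM in wild type and to 53.0 and 51.4 FPKM in the other pair.

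**Figure D3:**
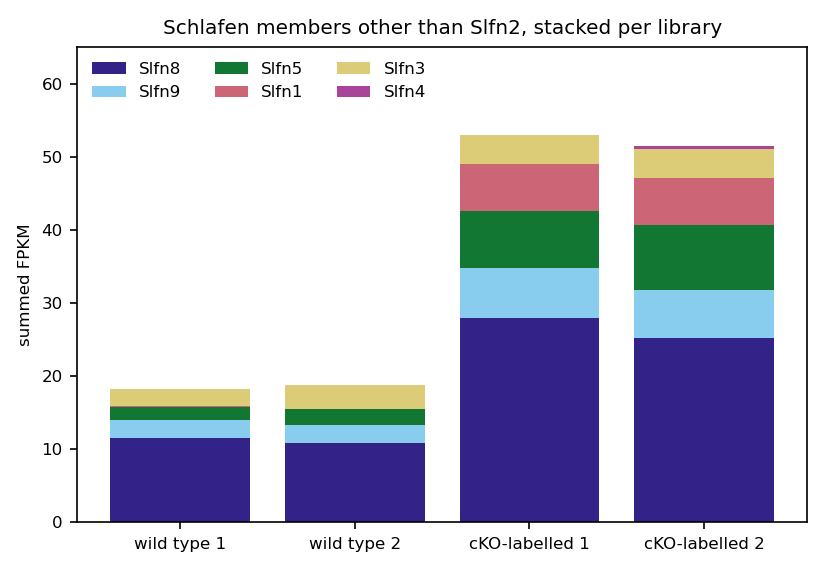
FPKM of the 6 members other than Slfn2, stacked for each of the 4 libraries (vertical axis, summed FPKM from 0). Slfn8 is the largest part in each bar, and Slfn1 is visible in the cKO-labelled bars alone.

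Genes that neighbour the cluster were examined next. The members span 263.8 kb of chromosome 11, and 57 genes outside the family lie within that span or 500 kb on either side, of which 18 were tested. Of these, 3 were called higher and 0 lower, against 12.2% and 9.54% of all tested genes, with a median change of 0.09 against -0.0058 over all tested genes. All 3 were chemokine genes that lie more than 310 kb beyond the last member. Ccl5, which attracts T cells, rose from 4.99 and 6.41 CPM to 33.0 and 46.5 CPM (2.79 ± 0.16, adjusted p of 3.17e-12). Ccl4 rose from 16.3 and 17.1 to 30.5 and 31.6 CPM (0.89 ± 0.11) and Ccl3 from 29.1 and 33.1 to 37.7 and 41.0 CPM (0.34 ± 0.094). Inside the span, the tested genes that are not family members were Gm11425 (0.12 ± 0.39) and Gm20234 (-0.08 ± 0.39), neither of which was called.

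**Figure D4:**
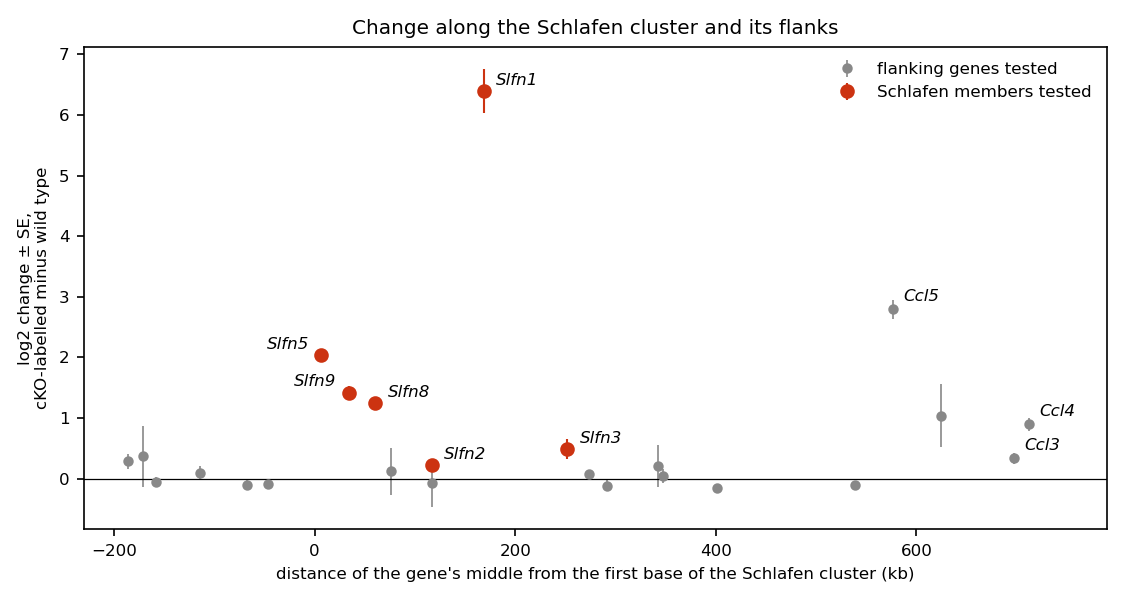
Log2 change ± SE, cKO-labelled minus wild type (vertical axis), of the 6 tested members and 18 tested flanking genes, against the distance in kb from the start of the cluster (horizontal axis). Slfn5, Slfn9 and Slfn8 form the left end of the cluster, between 1.25 and 2.03, and Slfn2 at 0.22 is the nearest member to Slfn1 at 6.40.

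Family rows outside the 7 members were also measured. The pseudogene Slfn10-ps, between Slfn8 and Slfn2, held 180 and 252 counts in the wild-type pair against 314 and 257 in the cKO-labelled pair, a change of 0.46 ± 0.15 with an adjusted p of 0.0270. It shares 7.84% of its 100-base stretches with other genes, all with Slfn8 or Slfn9, and reads from those stretches cannot be told apart. Slfn14, a ribosome-associated member, was at 0 counts in all 4 libraries, and Slfnl1, on chromosome 4, had a single count in wild-type library 2 and none elsewhere.

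Most interferon pathway genes that could be tested rose in the same libraries. The list of interferons, receptors, kinases, transcription factors and feedback inhibitors held 20 genes, of which 17 were tested. Of these 17, 11 were higher and 1, the feedback inhibitor Socs3, lower (-0.77 ± 0.14), with a median of 0.64. Of all tested genes, 12.2% were called higher and 9.54% lower. Usp18 and Irf7 also stand on the list of interferon-stimulated genes below, so the lists overlap. Usp18, which dampens interferon receptor signalling, rose from 13.6 and 14.5 to 119.9 and 127 CPM. Irf7, which drives interferon genes, rose from 16.4 and 16.6 to 88.8 and 91.5 CPM, and Stat2, a subunit of the complex that binds the ISRE, from 75.8 and 75.2 to 167 and 175 CPM. The receptor chains Ifnar1 (0.02 ± 0.070) and Ifnar2 (-0.05 ± 0.092) were not called. Of the other receptor chains, Ifnlr1 (1.29 ± 0.30) and Ifngr2 (0.19 ± 0.069) were called higher, and Ifngr1 (0.21 ± 0.086) was not called. Ifnb1 had 0 and 1 counts against 1 and 10, Ifna4 0 and 0 against 20 and 4, and Ifna2 0 and 0 against 0 and 4. These interferon genes were not tested. Ifng, with 5 and 2 counts against 15 and 18, was tested and called higher (2.25 ± 0.70).

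The 6 tested members were spread over the range of other interferon-stimulated genes and beyond both its ends. The list of these genes outside the family was chosen with earlier results of these data known. All 28 of its genes were called higher, against 12.2% of all tested genes. They ranged from 0.74 for Samd9l to 4.63 for Ifi44, with a median of 2.09. Those with the smallest adjusted p were Usp18 (3.13 ± 0.079), Oas3 (3.17 ± 0.087) and Mx1 (3.15 ± 0.098), all antiviral or feedback genes. Slfn5, Slfn9 and Slfn8 lay inside that range, Slfn1 above it, and Slfn3 and Slfn2 below it. These are values of the same 4 libraries side by side, and whether any member differs from the list was not tested. Of the 20 listed genes with a promoter in the RefSeq table, 8 held the ISRE core in the same 250-base window.

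**Figure D5:**
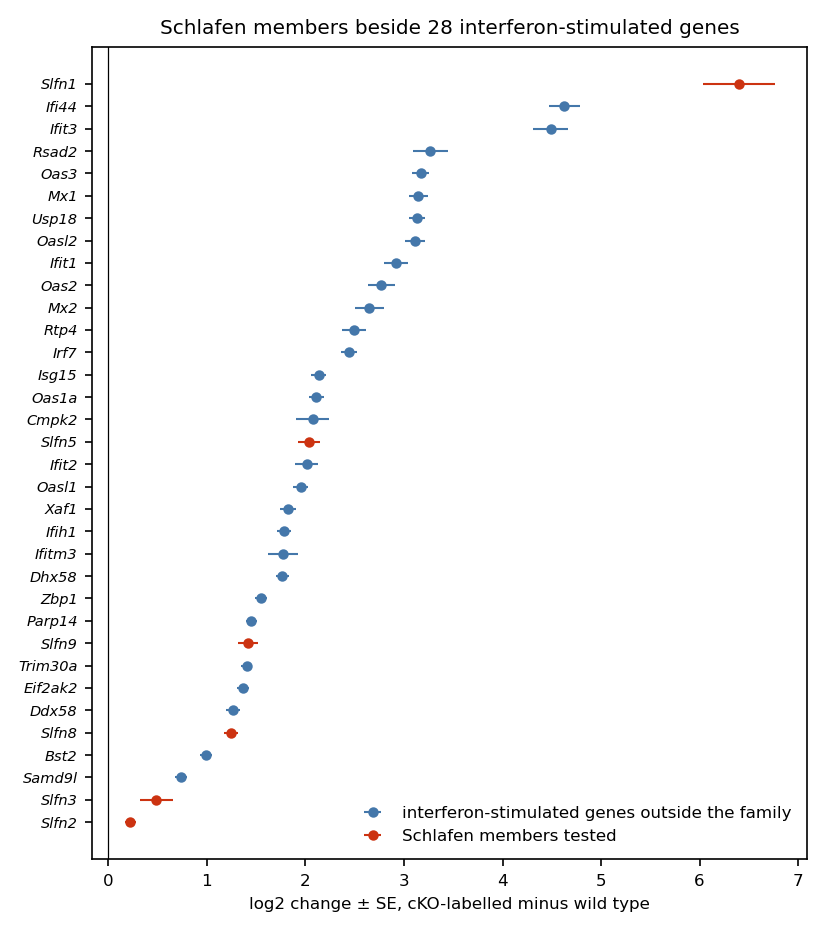
Log2 change ± SE, cKO-labelled minus wild type (horizontal axis), of 28 interferon-stimulated genes outside the family (blue) and the 6 tested Schlafen members (red), sorted by change. Slfn2 and Slfn3 form the low end, Slfn8, Slfn9 and Slfn5 lie within the blue points, and Slfn1 is the highest.

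Genes outside the family with the most similar pattern over the 4 libraries were found by the Euclidean distance between centred log2 CPM values. The 9652 candidate genes had a mean of at least 5 CPM, and genes with Gm or Rik symbols were left out. With 4 libraries this likeness describes mainly the size of the change. For Slfn1 they were Oas1g (distance 0.666), Ifi44 (1.09) and Ifit3 (1.43), all interferon-stimulated. For Slfn5 they were Id2 (0.159), Bcl2l14 (0.209) and Ifi207 (0.236). For Slfn8 they were Jaml (0.0284), Plac8 (0.0688) and Ifi209 (0.0756), and for Slfn9 the GTPase gene Igtp (0.0447), Parp14 (0.0629) and Gbp4 (0.0820). For Slfn2 they were Zbtb44 (0.0070), Nucks1 (0.0104) and Eloa (0.0107). For Slfn3 they were Ahrr (0.0464), Slc49a4 (0.0677) and Ighv5-16 (0.0960).

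Genes that partner the known Schlafen functions were counted against the 12.2% of all tested genes called higher and the 9.54% called lower. Of 17 genes of transfer RNA cleavage, maturation and repair, 1 was higher and 1 lower, with a median of -0.04. These were Samd9l, an interferon-stimulated gene that also stood on the other list (0.74 ± 0.061), and Tsen34, a subunit of the splicing endonuclease of transfer RNA (-0.43 ± 0.098). The nuclease gene Ang (0.05 ± 0.57) and its inhibitor Rnh1 (-0.06 ± 0.061) were not called. Of 12 regulators of lymphocyte quiescence, 2 were higher and 3 lower, with a median of 0.0073. The 3 lower became 1 under DESeq2 and after removal of the GC trend, 2 with DESeq2 size factors in edgeR and 4 with upper-quartile factors. This number also varied when single libraries were left out. Klf2, a transcription factor of resting lymphocytes, fell from 17.5 and 18.5 to 7.94 and 9.51 CPM (-1.04 ± 0.15). The antiproliferative genes Btg1 and Btg2 rose by 0.37 ± 0.056 and 0.39 ± 0.066.

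Markers of other cell types were also summed. Since Slfn1 and Slfn2 are known from T cells, T-cell genes were examined: Cd3e was counted 0 and 1 times in wild type against 3 and 3 times in the other pair, and Cd3g 23 and 10 against 16 and 20. The 8 T-cell markers summed to 156 to 164 CPM in wild type and 127 to 137 CPM in the cKO-labelled pair. Lck, at 162 and 155 against 125 and 133 CPM, made up most of this sum and made its fall. Cd4 was counted 2 and 1 times against 6 and 15, and Cd8b1 3 and 4 against 9 and 10. Cd3d was counted 4 and 5 times against 6 and 7, Cd28 2 and 5 against 3 and 8, and Cd8a 1 and 2 against 0 and 1. The 5 NK-cell markers summed to 0.290 and 0.153 CPM in wild type against 1.05 and 1.20 CPM, with each marker at 8 counts or fewer in any library. The 7 macrophage and monocyte markers summed to 123 to 129 CPM in wild type against 46.6 to 56.3 CPM. Adgre1, at 111 and 108 against 30.3 and 40.3 CPM, made this difference and was the 1 of them called, lower. The 6 dendritic cell markers summed to 57.1 to 58.4 CPM in wild type against 108 to 113 CPM. Of the 4 that were tested, 3 (Flt3, Zbtb46 and Itgax) were called higher and Xcr1 (0.42 ± 0.26) was not called. Clec9a was counted 1 and 1 times against 2 and 2, and Siglech 9 and 2 against 3 and 14. Of all tested genes, 12.2% were called higher and 9.54% lower. The 4 erythroid markers summed to 0.812 to 1.27 CPM in wild type against 3.61 to 3.78 CPM. The 4 stromal markers summed to 60.9 to 62.4 CPM in wild type against 68.6 to 75.8 CPM, nearly all from Pecam1, and Col1a1, Col1a2 and Pdgfra held at most 9 counts in any library. The part of these cells in the rise of Schlafen genes was not tested.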

How the data were processed

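The authors deposited whole-number read counts per gene and FPKM values for each library. The tools listed, per the submitters' processing notes, were HTSeq 0.6.1 and HISAT2 2.0.1, with cutadapt 1.9.1 and bcl2fastq 2.17.1.14, and the build was GRCm38. What each tool did, the strand setting and the annotation used are not stated. The NEBNext Ultra RNA kit named in the labels' protocols does not mark strand. The deposited FPKM were checked against the counts, exonic lengths and library totals and differed by at most 0.005.

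All counts were fitted with edgeR 4.0.16 in R 4.3.3 (filterByExpr with a minimum count of 10 and a minimum total of 15, TMM factors, glmQLFit and glmQLFTest). Genotype was the only term, and p-values were adjusted by Benjamini-Hochberg over the 14180 genes tested. CPM use TMM-scaled sizes. Each SE was obtained as the size of the change over the root of its F statistic. DESeq2 1.42.0 was an alternative. The fit was tested on simulated data. A count was worth 0.0508 to 0.0577 CPM. Intervals of count ratios are exact conditional 95% intervals. Coding sequences were aligned globally with Biopython 1.88 from GENCODE M21 transcripts.

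The members and gene lists were chosen with earlier results of these data known. Named genes were the members, other Slfn rows, the 3 called flanking genes with the smallest adjusted p and those within the span, the 3 called members of each list with the smallest adjusted p (the most abundant where none was called), and the 3 genes most like each member with a mean of at least 5 CPM. Genes named beyond this rule were chosen after their values were seen. They were Ifnar1, Ifnar2, Ifnlr1, Ifngr1, Ifngr2, Ifna2, Ifna4, Ifnb1, Ifng, Socs3, Ang and Rnh1. Samd9l and Ifi44, as ends of a range, and single markers were chosen in the same way. Some markers and a motif that were examined are not reported here.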

Additional observations from a re-analysis of the deposited data

How the results depend on the processing

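The rises of Slfn1, Slfn5, Slfn8 and Slfn9 kept their direction and their call under every alternative run: other scaling factors, no filter, DESeq2, removal of each library's GC trend, leaving out each library, the replicate block and, for Slfn8 and Slfn9, summed copies. Slfn3 did not pass under DESeq2 (0.49, adjusted p of 0.132) or after removal of the GC trend (0.42, adjusted p of 0.0873), and its change ranged from 0.28 to 0.73 when each library was left out. The change of Slfn2 ranged from 0.20 to 0.24 when each library was left out, and its call was lost without wild-type library 1. The cause was not tested. When each library was left out, Slfn3 lost its call in 3 of these fits and Slfn2 in 1. Of these fits, Slfn4 passed the filter only in those that kept cKO-labelled library 2, through its 22 counts there. Its changes in these fits therefore all rest on that library. Its change was 3.84 ± 1.45 without wild-type library 1, where it was not called, and 6.86 ± 2.23 without wild-type library 2. Without cKO-labelled library 1 it was 5.22 ± 1.29. DESeq2 called 1235 genes higher and 795 lower, against 1727 and 1353 in edgeR, and upper-quartile factors gave 1615 higher and 1628 lower. Of the flanking genes, 1 was called lower with upper-quartile factors, after removal of the GC trend and with the replicate block, against 0. The replicate numbers were not shown to pair the libraries, since deviations of same-numbered libraries correlated at -0.029. With the replicate block 1904 of 14180 tested genes were higher and 1594 lower, and 6 members were higher. In Slfn1 and Slfn4 wild-type depth limits the size of the change.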
